A study of Homo sapiens with 6 samples.

Results

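The genes described here code for the factors that start and elongate protein synthesis in the cytosol. They were taken by name from the deposited count table: protein-coding genes whose symbol begins with EIF1 to EIF6, EEF1 or EEF2, leaving out the eIF2 kinases (EIF2AK) and the eIF4E-binding proteins (EIF4EBP). The rule found 59 genes among 29122 in the table, and it used no measured value. Besides the factors themselves it took in EEF2K, the kinase of eEF2, the methyltransferase gene EEF2KMT, EIF1AD, and the readthrough gene model EEF1E1-BLOC1S5. All libraries were polyadenylated RNA of A549, an established human lung carcinoma epithelial line, stably transduced with a lentivirus. The 3 control libraries came from cells with a hairpin RNA against firefly luciferase, a gene that human cells do not have, and the 3 BCLAF1-depleted libraries from cells with a hairpin against BCLAF1, which codes for a nuclear protein known from transcription and splicing. The source label spells the line A649 and the titles abbreviate the hairpin as si. The labels name no second hairpin against BCLAF1 and no rescue, and they do not say that replicates were separate cultures, so p-values measure the spread between libraries, which may be technical.

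Translation of most mRNAs begins when eIF4E binds the cap and the scaffold eIF4G joins it to the helicase eIF4A, which with eIF4B and eIF4H unwinds the leader. The small ribosomal subunit, carrying eIF1, eIF1A, eIF3, eIF5 and the complex of eIF2 with GTP and the initiator tRNA, then scans to a start codon, after which eIF5B joins the large subunit and eIF2B recharges eIF2. In elongation eEF1A delivers each aminoacyl-tRNA, the eEF1B subunits (EEF1B2, EEF1D and EEF1G) recharge eEF1A with GTP, and eEF2 moves the ribosome along the mRNA. The eIF3 complex is the largest of these factors, and EEF1A1 codes for one of the most abundant proteins of a cell.

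Several of these mRNAs are known as terminal oligopyrimidine (TOP) mRNAs: they begin with a C and an unbroken run of C and T bases, a mark shared with ribosomal protein mRNAs through which mTOR controls their translation. A list of 10 such members was EEF1A1, EEF1A2, EEF1B2, EEF1D, EEF1G, EEF2, EIF3E, EIF3F, EIF3H and EIF4B. The windows below are of the 6 members of that list that had a start window, called or not. EEF1D was among those without one. Each is 15 bases before and 15 from the RefSeq start (GRCh38.p14), written in the direction of transcription. Capitals mark a run that starts with C at the annotated start and goes on with at least 4 bases that are C or T.
EEF1A1, chr6:73521018-73521047, minus strand: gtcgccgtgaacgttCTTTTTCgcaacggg
EEF2, chr19:3985449-3985478, minus strand: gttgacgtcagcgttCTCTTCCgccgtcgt
EIF4B, chr12:53006441-53006470, plus strand: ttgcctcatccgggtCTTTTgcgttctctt
EIF3F, chr11:7987322-7987351, plus strand: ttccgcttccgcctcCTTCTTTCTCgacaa
EEF1B2, the second of its annotated starts, chr2:206159880-206159909, plus strand: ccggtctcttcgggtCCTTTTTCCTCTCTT
EEF1G, chr11:62573877-62573906, minus strand: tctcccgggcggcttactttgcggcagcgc
The run of EEF1B2 goes on past the window to 16 bases, and its first annotated start, not shown, held no such run. The annotated EEF1G start does not match. Of 64 start windows of 48 members, 12 (18.8%) held such a run exactly at the start, against 4.07% of 35116 windows of all genes. Counted by gene, 25% of these members and 5.14% of 27305 genes held one at any of their starts. Only the transcribed direction was searched. These 12 were EEF1A1, EEF1B2, EEF2, EIF2A, EIF2D, EIF2S3, EIF3D, EIF3F, EIF3K, EIF3M, EIF4A2 and EIF4B. By the test described in the next paragraph, EEF1B2 and EIF3K rose and 10 of the 12 did not pass in either direction, where 17.8% of all tested genes were called higher and 18% lower.

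Read counts summed to between 33409158 and 43928927 per library. Levels of a gene across libraries are given as CPM, counts scaled to library size and by TMM, which puts the typical gene at the same level in every library. Fold changes are log2 of BCLAF1-depleted over control ± SE, from edgeR's quasi-likelihood test with Benjamini-Hochberg adjustment over 15907 tested genes, called under 0.05. BCLAF1 itself stood at 211.1, 199.0 and 203.2 CPM in control replicates 1 to 3 and at 39.0, 35.7 and 53.1 CPM in the BCLAF1-depleted replicates (-2.26 ± 0.16, adjusted p = 2.31e-05). The epithelial markers KRT8, KRT18, CDH1 and EPCAM were present, whereas KRT19 was low, at a mean of 0.280 CPM in controls and 0.616 CPM after depletion (3 counts are 0.0683 to 0.0898 CPM). Summed haematopoietic markers (4 of 5 in the table) stood at 0.457 to 0.498 CPM and 0.570 to 0.986 CPM, and 6 fibroblast and endothelial markers at 19.4 to 20.2 CPM and 11.9 to 13.1 CPM, mostly COL1A1. In the BCLAF1-depleted libraries, genes named RPL or RPS took 8.56 to 11.5% of counts (6.71 to 6.89% in controls) and MALAT1 took 1.49 to 2.19% (0.940 to 0.983%). Mitochondrially encoded transcripts took 19.3% in BCLAF1-depleted replicate 3 and between 10.5 and 11.4% in the other libraries. What part these shifts had in the results below was not tested.

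Translation factor genes were called in both directions after BCLAF1 depletion, as all tested genes were, and the balance changed with the scaling. Transcripts of the eEF1B subunits, of EIF5B, of EIF5 and of eIF3 subunits J, K and G rose, whereas EIF4E3, EIF4G2, EIF4G3, EIF4H and EEF2K fell. Of 57 tested members 18 were called, 13 higher and 5 lower. That is 31.6% of members, where 35.8% of all tested genes were called. Higher calls made up 22.8% of members (17.8% of all genes) and lower calls 8.77% (18% of all genes). The median log2 fold change was 0.27 over the members and 0.02 over all tested genes. Scaled by library totals alone, 5 members were higher and 7 lower, and the medians were 0.04 and -0.21. On the FPKM values 4 were higher and 10 lower. For 34 members the control and BCLAF1-depleted values had no overlap (59.6%, against 51.9% of all tested genes). The members not tested were EIF2S3L and EIF4E1B, which had at most 4 counts in any library. EIF1AY, a called member (higher), is counted here, but its level is not given. In bulk RNA, fewer cells that express a gene and less RNA per cell cannot be told apart.

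**Figure D1:**
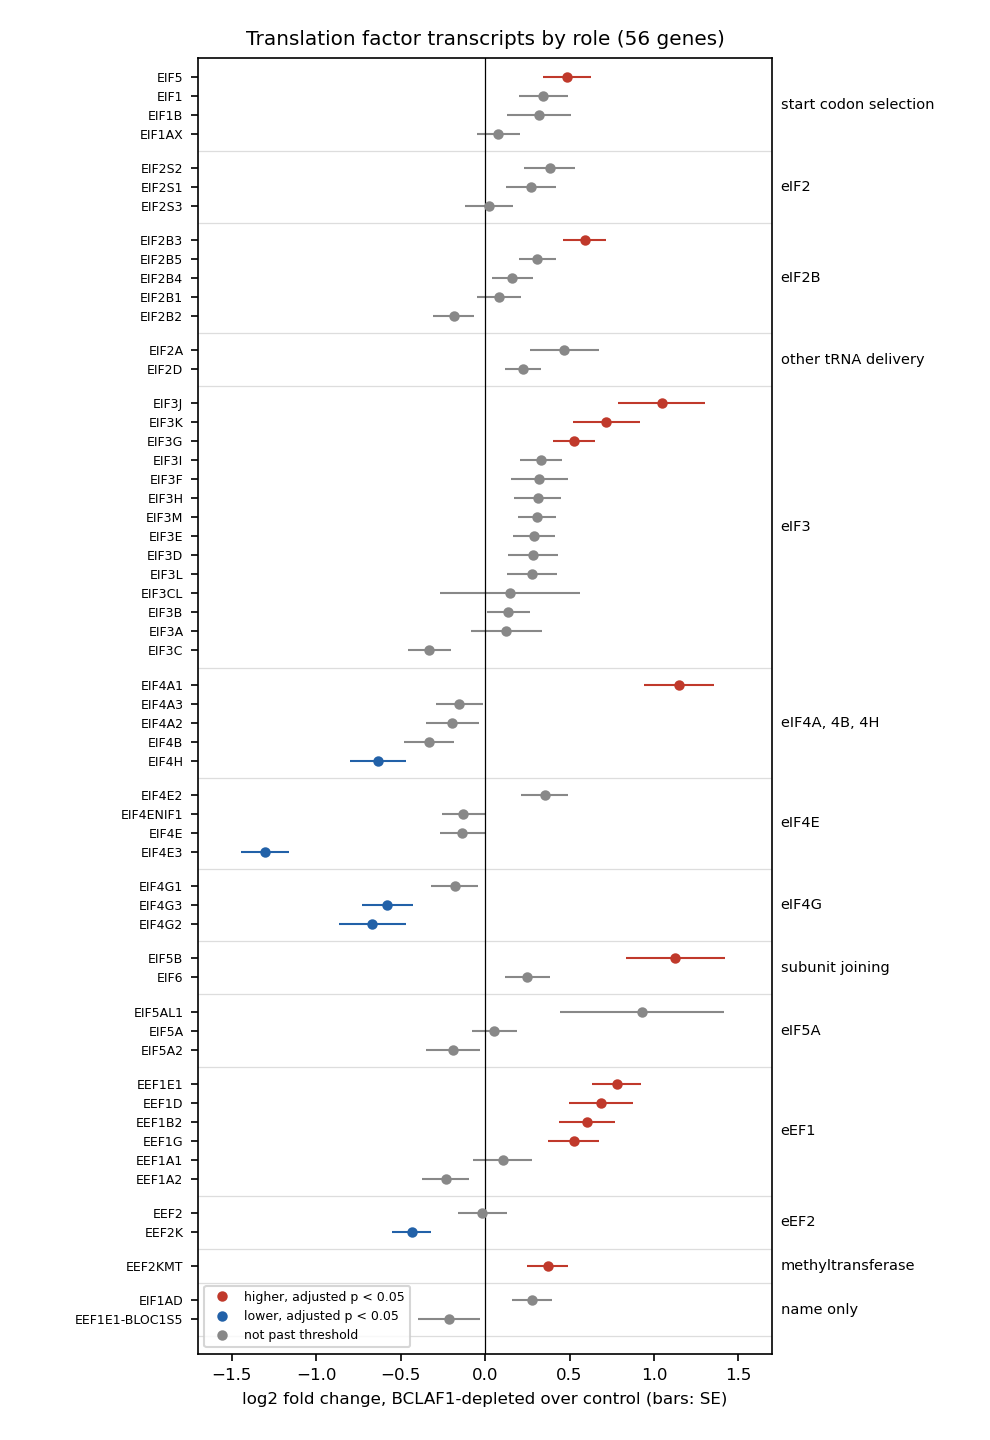
Log2 fold change of BCLAF1-depleted over control libraries (horizontal axis) for 56 tested members, grouped by role and ordered within each role. Points are the estimates and bars the SE; red points rose and blue points fell at an adjusted p under 0.05, and grey points did not pass. Blue points lie in the rows of eIF4H, eIF4E, eIF4G and EEF2K.

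Levels between genes are compared here only on the authors' FPKM, which divides by gene length. Among the member rows as counted, elongation factors led in controls: EEF1A1 had 923.5 ± 29.4 FPKM (SD, n = 3), EEF1G 765.3 ± 14.2, EEF1B2 626.4 ± 19.7 and EEF2 499.7 ± 7.91. The fifth row was EIF3K with 178.4 ± 18.5 FPKM, and 16 member rows reached 100 FPKM. The place of EIF4A1 in this order is not known. Its row had 5.37 FPKM in controls, but most reads of its locus were counted under the readthrough model SENP3-EIF4A1, as described below. The EIF4A1 row held 0.719 to 1.09% of the reads of that pair in controls. After depletion EEF1G stood at the top with 897.3 ± 82.0 FPKM, EEF1A1 followed with 823.0 ± 212.4 and EEF1B2 with 769.7 ± 82.5. The place of EEF1A1 among these genes changed between the BCLAF1-depleted libraries (1040, 814 and 615 FPKM in replicates 1 to 3). EEF1G lay above EEF1B2 in each of them. The FPKM order depends on the length used. Counts over FPKM, with the summed counts taken as depth, imply 5861 bases for EEF1A1 and 1734 bases for EEF1G. These are 98.5% and 63.8% of the union of their annotated exons. Among members the implied length reached 115.9% of the union. The authors' depth or exons may thus differ from those assumed here, and the implied lengths are approximate. All members together took 1.95 to 1.96% of counts in controls and 1.74 to 2.11% after depletion.

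Transcripts of the eEF1B exchange subunits were called higher, while that of their client EEF1A1 did not pass. The difference between them was not tested. EEF1B2, the catalytic beta subunit, stood at 734.1, 702.8 and 739.0 CPM in controls and at 879.6, 1238 and 1187 CPM after depletion (0.60 ± 0.17, adjusted p = 0.0192). The gene lies at chr2:206159585-206162928 on the plus strand. EEF1D, the delta subunit with a related exchange domain, went from 517.8, 498.4 and 502.5 CPM to 591.2, 991.3 and 865.6 CPM (0.69 ± 0.19, adjusted p = 0.0192). Every BCLAF1-depleted library lay above all controls for both genes, with replicate 1 the closest to the controls. EEF1G, the gamma subunit that holds the complex together, went from 1198, 1199 and 1224 CPM to 1572, 1863 and 1772 CPM (0.52 ± 0.15, adjusted p = 0.0218). In GENCODE 29, 99.9% of the EEF1G exon sequence is also annotated as AP002990.1, and 34.0% of that of EEF1D lies opposite other genes. EEF1A1 had 4819, 4888 and 5064 CPM in controls and 5917, 5369 and 4586 CPM after depletion. Its groups overlapped (0.10 ± 0.18, adjusted p = 0.67). The estimate was negative in 5 of 19 other settings: library totals alone (-0.10), the FPKM values (-0.20) and without BCLAF1-depleted replicate 1 (-0.0027). It was largest with the length and GC trend removed (0.27, adjusted p = 0.227), where EEF1G was at 0.32. EEF1A2, the form of eEF1A known from muscle and nerve, had 103.9, 105.5 and 122.5 CPM against 84.1, 108.9 and 89.3 CPM (-0.23 ± 0.14, adjusted p = 0.208). EEF1A1 thus made up 94.2 to 94.8% of the summed FPKM of the pair in controls and 95.1 to 96.5% after depletion. EEF1E1, a scaffold of the multi-tRNA-synthetase complex, rose from 4.30, 3.74 and 4.20 CPM to 6.78, 7.39 and 6.84 CPM (0.78 ± 0.15, adjusted p = 0.0037). The EEF1E1 call held in 16 of 19 other settings and was lost with limma-trend on the FPKM values (adjusted p 0.0552 to 0.0866). The gene shares 18.7% of its exon sequence with its neighbour EEF1E1-BLOC1S5. That readthrough model, which shares 100% of its exon sequence with other genes, did not pass (-0.22 ± 0.18, adjusted p = 0.377). Of the TOP list, EEF1B2, EEF1D and EEF1G rose and 0 of 10 fell (all tested genes 17.8% higher and 18% lower), with a median of 0.30. The calls of EEF1B2, EEF1D and EEF1G were lost with library totals alone (0.29 to 0.44, adjusted p 0.0612 to 0.146), on the FPKM values, and without any 1 of the controls. Those of EEF1B2 (0.37, adjusted p = 0.0798) and EEF1G (0.32, adjusted p = 0.088) were also lost once the trend with length and GC content was removed, and those of EEF1B2 and EEF1D without BCLAF1-depleted replicate 2.

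Around eEF2, the kinase gene changed and the factor gene did not pass. EEF2 stood at 1663, 1654 and 1597 CPM in controls and 1610, 1552 and 1698 CPM after depletion (-0.02 ± 0.15, adjusted p = 0.942), with overlapping groups and a sign that turned under upper-quartile scaling (0.03). EEF2K, the calcium-regulated kinase that phosphorylates and stops eEF2, fell from 35.9, 37.2 and 35.6 CPM to 29.5, 26.1 and 24.7 CPM (-0.43 ± 0.12, adjusted p = 0.0168). All BCLAF1-depleted libraries lay below all controls. EEF2KMT, a lysine methyltransferase of eEF2, rose from 28.4, 25.6 and 28.1 CPM to 31.4, 36.7 and 38.03 CPM (0.37 ± 0.12, adjusted p = 0.0368). The latter is the least stable call: it held in 7 of 19 other settings and was lost, among others, with library totals alone (0.13), with no low-count filter (0.33) and with the length and GC trend removed (0.21). The EEF2K call held in 14 of 19 settings. It was lost without any 1 of the controls (adjusted p up to 0.0836), with the length and GC trend removed together with a replicate block (adjusted p = 0.0544), and on unfiltered FPKM (adjusted p = 0.0521).

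Of the genes that act at the cap and on the leader, 1 of 4 tested eIF4E genes and 2 of 3 eIF4G genes fell, and of 5 genes for eIF4A and its cofactors 1 fell and 1 rose. Among all tested genes 18% were called lower and 17.8% higher. EIF4E3, an atypical cap-binding homologue of eIF4E, had the steepest fall of all members: 16.6, 16.8 and 19.8 CPM in controls against 8.01, 6.42 and 7.15 CPM after depletion (-1.30 ± 0.14, adjusted p = 0.000232). It was called in all 19 other settings tried, at -1.52 to -0.77. The gene lies at chr3:71675416-71754773 on the minus strand (GRCh38, GENCODE 29). EIF4E, the main cap-binding protein, had 47.3, 49.2 and 48.9 CPM against 52.3, 38.4 and 41.8 CPM, with overlapping groups (-0.13 ± 0.13, adjusted p = 0.455). EIF4E2, a cap-binding homologue tied to repression of translation, had 96.9, 98.2 and 97.0 CPM against 102.7, 138.1 and 132.0 CPM, all higher than controls but past the threshold only in some settings (0.35 ± 0.14, adjusted p = 0.0679). The share of EIF4E3 in the summed FPKM of EIF4E, EIF4E2 and EIF4E3 was 6.47 to 7.65% in controls and 1.99 to 3.04% after depletion. EIF4ENIF1, which carries eIF4E into the nucleus, overlapped between the groups (-0.13 ± 0.13, adjusted p = 0.444).

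Of the scaffold genes, EIF4G2 and EIF4G3 fell. EIF4G2 (DAP5), a homologue that lacks the eIF4E-binding part, stood at 645.6, 647.3 and 633.4 CPM in controls and at 527.0, 297.5 and 388.2 CPM after depletion (-0.67 ± 0.20, adjusted p = 0.0249). EIF4G3 went from 106.0, 101.4 and 96.5 CPM to 82.9, 56.1 and 64.5 CPM (-0.58 ± 0.15, adjusted p = 0.0157). In both, replicate 1 was the nearest to the controls and replicate 2 the lowest. EIF4G1, the main scaffold, had 517.5, 511.2 and 456.4 CPM against 484.5, 405.3 and 420.4 CPM, with overlapping groups (-0.18 ± 0.14, adjusted p = 0.331). On FPKM, EIF4G2 made up 60.1 to 62.6% of the summed level of these 3 genes in controls and 48.4 to 57.5% after depletion, and EIF4G1 31.3 to 33.5% and 36.7 to 45.7%. The EIF4G2 call was lost with the length and GC trend removed (-0.45, adjusted p = 0.0584), without any 1 of the controls, and without BCLAF1-depleted replicate 2 (-0.49, adjusted p = 0.058) or 3 (-0.64, adjusted p = 0.0543). That of EIF4G3 was lost without control replicate 1 (adjusted p = 0.0673) or 2 (adjusted p = 0.0584).

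EIF4H, a cofactor that stimulates the helicase eIF4A, fell from 403.0, 409.1 and 408.5 CPM to 308.9, 203.8 and 273.5 CPM (-0.63 ± 0.16, adjusted p = 0.015). Controls differed by less than the gap to the highest BCLAF1-depleted library. The call was lost without any 1 of the controls (adjusted p 0.0568 to 0.0608) and held in the other 16 settings. EIF4B, the related cofactor, had 620.1, 614.6 and 633.7 CPM against 540.3, 417.6 and 528.4 CPM. Its groups did not overlap, but it did not pass (-0.33 ± 0.15, adjusted p = 0.104) except with library totals alone (-0.55, adjusted p = 0.0241), on filtered FPKM (-0.63) and without BCLAF1-depleted replicate 1 (-0.42, adjusted p = 0.0225). The helicase genes EIF4A2 (-0.19 ± 0.16, adjusted p = 0.352) and EIF4A3 (-0.15 ± 0.14, adjusted p = 0.415), which serves in the exon junction complex, overlapped between the groups.

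The row of EIF4A1, the major helicase gene, cannot be read as its level. It held 8.60, 8.95 and 11.7 CPM in controls and 15.2, 25.5 and 24.3 CPM after depletion, a rise by 1.15 ± 0.21 (adjusted p = 0.00319). In GENCODE 29, 48.6% of its exon sequence is shared with other genes of the same strand, among them the readthrough model SENP3-EIF4A1. That model, named after its value was seen, held 52470, 52739 and 51103 counts in controls against 380, 397 and 565 in the EIF4A1 row, so that 0.719 to 1.09% of the reads of the pair were counted as EIF4A1. After depletion this share was 1.20 to 2.53%. The SENP3-EIF4A1 row stood at 1187, 1189 and 1062 CPM against 1249, 1325 and 937.2 CPM (0.03 ± 0.17, adjusted p = 0.904). With the rows added together before the test, EIF4A1 was at 0.04 ± 0.17 (adjusted p = 0.855), and 12 members rather than 13 were higher. The sources used here do not say how reads of overlapping gene models were assigned.

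**Figure D2:**
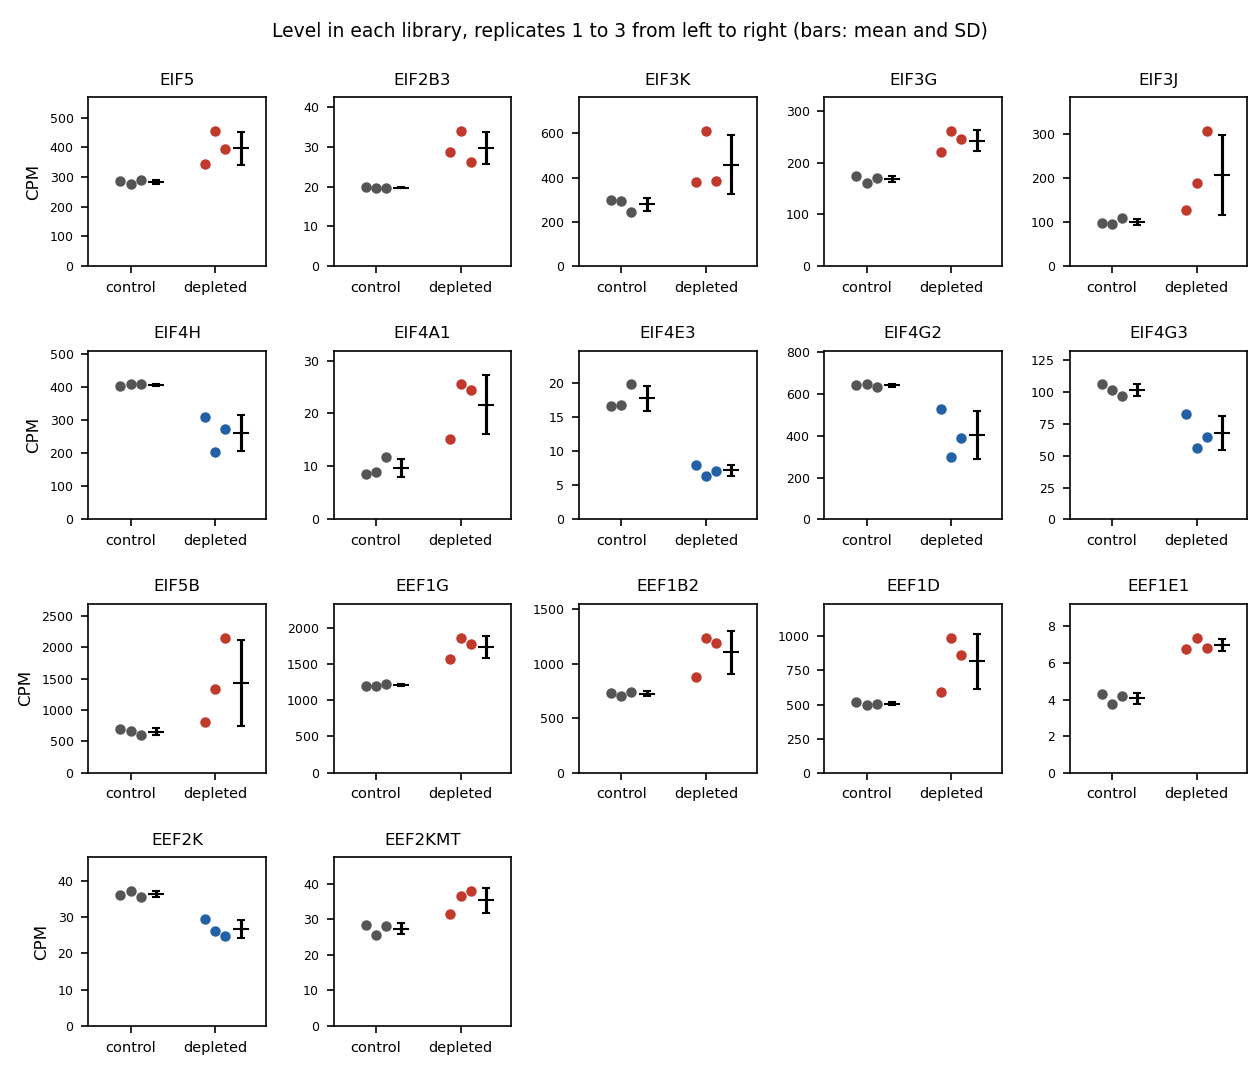
CPM (vertical axes, each from 0) of the 17 called members whose levels are given, in control (grey) and BCLAF1-depleted libraries (red for genes that rose, blue for genes that fell), with replicates 1 to 3 from left to right. Bars are the mean and SD of 3 libraries. These genes were called on the same libraries. No gene's groups overlap (51.9% of all tested genes had no overlap), and replicate 1 is the depleted library nearest to the controls in 16 of the 17 panels. It was also nearest in the median over tested genes in each quintile of exon length.

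EIF5B, the GTPase that joins the ribosomal subunits, had one of the largest rises among members: 702.2, 664.5 and 598.6 CPM in controls and 806.9, 1328 and 2155 CPM after depletion (1.13 ± 0.29, adjusted p = 0.0155). All BCLAF1-depleted libraries lay above all controls but differed widely among themselves, and the highest, replicate 3, is the one with 19.3% mitochondrial counts. The gene lies at chr2:99337353-99401326 on the plus strand. Without replicate 3 the rise was 0.70 and still passed, as it did with library totals alone (0.84). It was lost without control replicate 2 (adjusted p = 0.0515) or 3 (adjusted p = 0.0687). EIF6, which keeps the large subunit from joining early, overlapped between the groups (0.25 ± 0.13, adjusted p = 0.158).

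Among genes of scanning and start codon choice, EIF5, which activates the GTPase of eIF2, rose from 285.4, 277.5 and 289.7 CPM to 344.1, 455.1 and 393.8 CPM (0.48 ± 0.14, adjusted p = 0.0249). EIF1, which holds the scanning ribosome to correct start codons, had 208.3, 210.8 and 198.2 CPM against 252.8, 307.7 and 223.3 CPM. Its groups did not overlap, but the difference did not pass (0.34 ± 0.15, adjusted p = 0.0883). EIF1B (0.32 ± 0.19) and EIF1AX (0.08 ± 0.13) overlapped. The EIF5 call was lost with library totals alone (0.25, adjusted p = 0.222), on FPKM (0.18), without any 1 of the controls and without BCLAF1-depleted replicate 2 (0.38, adjusted p = 0.0562), and was larger with the length and GC trend removed (0.74).

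No subunit gene of eIF2 passed. EIF2S2 (beta) was at 0.38 ± 0.15 (adjusted p = 0.0737), EIF2S1 (alpha, which stress kinases phosphorylate) at 0.27 ± 0.15 and EIF2S3 (gamma) at 0.02 ± 0.14. In other settings, EIF2S2 passed with the DESeq2 Wald test (0.39, adjusted p = 0.0342) and without BCLAF1-depleted replicate 1 (0.48, adjusted p = 0.00556). EIF2S1 passed with the length and GC trend removed (0.49, adjusted p = 0.0263), also with a replicate block. Of 5 genes for the exchange factor eIF2B, EIF2B3 (gamma) rose from 19.96, 19.7 and 19.6 CPM to 28.8, 34.0 and 26.3 CPM (0.59 ± 0.13, adjusted p = 0.00697). EIF2B5, the catalytic epsilon subunit, went from 48.1, 44.7 and 46.1 CPM to 54.2, 56.7 and 61.3 CPM without overlap, just outside the threshold (0.31 ± 0.11, adjusted p = 0.0514). EIF2B4 (0.16), EIF2B1 (0.08) and EIF2B2 (-0.19) did not pass. The EIF2B3 call was lost with library totals alone (0.37, adjusted p = 0.147) and on FPKM (0.26). EIF2A and EIF2D, which can deliver initiator tRNA apart from eIF2, did not pass. EIF2A had 92.3, 82.9 and 152.3 CPM after depletion against 77.8, 77.8 and 80.9 CPM in controls (0.47 ± 0.20, adjusted p = 0.0963), again with replicate 3 the highest.

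Of 14 eIF3 genes 3 rose and 0 fell, so 21.4% were called where 35.8% of all tested genes were. Their median was 0.30. EIF3J, the loosely bound subunit that contacts the decoding site, went from 97.96, 95.1 and 107.9 CPM to 127.5, 187.7 and 305.8 CPM (1.04 ± 0.26, adjusted p = 0.0126). All BCLAF1-depleted libraries lay above all controls, and replicate 3 was the highest. EIF3K, a small peripheral subunit, went from 298.9, 292.6 and 243.2 CPM to 379.3, 610.2 and 384.0 CPM (0.72 ± 0.20, adjusted p = 0.0197), with replicate 2 the highest. EIF3G, an RNA-binding subunit, went from 174.2, 161.1 and 170.0 CPM to 221.1, 261.2 and 245.2 CPM (0.53 ± 0.13, adjusted p = 0.0108). The core scaffolds EIF3A (0.13 ± 0.21, adjusted p = 0.668) and EIF3B (0.14 ± 0.13, adjusted p = 0.424) did not pass. EIF3A had 963.4, 892.4 and 1529 CPM after depletion against 1138, 1027 and 935.3 CPM in controls. EIF3D, EIF3E, EIF3F, EIF3H, EIF3I, EIF3L and EIF3M lay at 0.28 to 0.33, none past the threshold (adjusted p from 0.0579 to 0.167). With the length and GC trend removed, EIF3E, EIF3F, EIF3H and EIF3M passed (0.52 to 0.58, adjusted p 0.00715 to 0.0298). In that setting EIF3D, EIF3I and EIF3L did not (0.02 to 0.30). EIF3C had the only negative estimate: 59.7, 57.5 and 58.3 CPM against 53.3, 41.0 and 45.4 CPM (-0.33 ± 0.13, adjusted p = 0.0631). It passed with library totals alone (-0.54, adjusted p = 0.0381), on filtered FPKM (-0.58) and without BCLAF1-depleted replicate 1 (-0.46, adjusted p = 0.00438). EIF3C has a near-identical copy, EIF3CL, which held at most 54 counts, and the sources used here do not say how reads that fit both were counted. The calls of EIF3K and EIF3G were lost with library totals alone (0.50, adjusted p = 0.0832, and 0.30, adjusted p = 0.14), on FPKM, and without any 1 of the controls, whereas EIF3J was called in 18 of 19 settings.

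EIF5A, the hypusine-bearing factor that frees ribosomes stalled at proline runs, overlapped between the groups (0.05 ± 0.13, adjusted p = 0.776). It was negative when scaled by library totals alone (-0.18), on FPKM (-0.23) and with the length and GC trend removed (-0.14). It supplied 98.5 to 98.8% of the summed FPKM of EIF5A and EIF5A2 in controls. EIF5A2 was at -0.19 ± 0.16 (adjusted p = 0.365). EIF5AL1, a copy of EIF5A, held 13 to 54 counts, so its estimate of 0.93 ± 0.48 (adjusted p = 0.155) rests on few reads that may belong to EIF5A. EIF1AD, matched by name, had 12.9, 14.3 and 14.8 CPM against 16.5, 17.2 and 17.3 CPM (0.28 ± 0.12, adjusted p = 0.0905).

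Genes that act on these factors were described from 7 further lists, whose counts stand beside 17.8% of all tested genes called higher and 18% lower. Of 6 genes for the kinases and phosphatase subunits of eIF2, EIF2AK1, the haem-regulated kinase, fell from 261.2, 251.2 and 231.5 CPM to 176.0, 153.9 and 191.2 CPM (-0.51 ± 0.13, adjusted p = 0.0154). PPP1R15A, the stress-induced subunit that reverses eIF2 phosphorylation, rose from 105.2, 104.6 and 95.8 CPM to 131.4, 163.9 and 220.3 CPM (0.75 ± 0.18, adjusted p = 0.0103). For each gene the groups did not overlap, but the EIF2AK1 call was lost without control replicate 1 (adjusted p = 0.0852) or 2 (adjusted p = 0.0745) and that of PPP1R15A without control replicate 3 (adjusted p = 0.0539). Of 5 tested inhibitors and kinases of eIF4E, EIF4EBP2, which blocks eIF4E when unphosphorylated, fell from 20.9, 22.4 and 20.1 CPM to 12.6, 11.1 and 10.1 CPM (-0.91 ± 0.13, adjusted p = 0.00101). Of 9 genes for hypusine and diphthamide synthesis, the modifications of eIF5A and eEF2, DOHH (0.93 ± 0.21), DPH1 (0.69 ± 0.13) and DPH2 (0.51 ± 0.12) rose and DHPS fell (-0.45 ± 0.13, named after its value was seen). Of 7 poly(A)-binding protein genes and partners PABPN1 rose (0.64 ± 0.18), of 6 termination and recycling genes GSPT2 (1.85 ± 0.31, from a mean of 0.744 to 2.69 CPM) and MCTS1 (0.57 ± 0.12) rose, and of 4 selenocysteine genes 0 passed. Of 9 tested mitochondrial translation factor genes 2 rose and 3 fell, among them MTIF3 (0.84 ± 0.27) and the elongation factor G genes GFM2 (-0.66 ± 0.17) and GFM1 (-0.63 ± 0.19). With library totals alone the rises of DPH2, PABPN1, MCTS1 and MTIF3 were lost (adjusted p 0.0634 to 0.248). MTIF3 lost its call without each 1 of the controls, without BCLAF1-depleted replicate 2, and without replicate 3 (0.43, adjusted p = 0.11), in which it was highest. The GFM1 call was lost without any 1 of the controls, without BCLAF1-depleted replicate 3 and with the length and GC trend removed (-0.37, adjusted p = 0.0811), and that of GFM2 without control replicate 2 or 3 or BCLAF1-depleted replicate 2. PABPN1 lost its call without any 1 of the controls or BCLAF1-depleted replicate 2, and DPH2 without control replicate 1 or 2. The medians of these lists lay between -0.21 and 0.05.

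Called members mostly shared an ordering of libraries, which the medians over tested genes also had. BCLAF1-depleted replicate 1 was the nearest to the control mean for 16 of 17 called members whose levels are given, and replicate 2 the farthest for 13. The exception was EIF2B3, for which replicate 3 was nearest. In each quintile of exon length, the median over tested genes was likewise nearest to controls in replicate 1 and farthest in replicate 2. In the shortest quintile these log2 medians were 0.18, 0.45 and 0.35 in BCLAF1-depleted replicates 1 to 3. In the longest they were -0.11, -0.28 and -0.22. The share of single genes with this order was not counted. BCLAF1 itself was lowest in replicate 2 and highest in replicate 3. Without replicate 1, 20 members were higher and 10 lower, where 48.8% of all tested genes were called. Without control replicate 1, 2 or 3, higher and lower members numbered 6 and 1, 5 and 1, and 5 and 2, where 18.1%, 18.1% and 19.7% of all genes were called. Without BCLAF1-depleted replicate 2 they numbered 9 and 4 (25% of all genes).

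Fold changes of members also went with exon length, as those of all genes did. Across 56 members the Spearman correlation of fold change with the union of exons was -0.32, and across 15764 tested genes -0.30. These are correlations across genes of the same libraries, given as a description. Lower members had a median exon length of 8655 bases and higher members of 3303 bases. EIF4H, with 3191 bases, fell, and EIF5B (7883), EIF5 (8505) and EEF1D (9390) rose. With the trend in length and GC content removed per library, 19 members were higher and 4 lower (33.8% of all genes called), and 13 of the 17 called members with values stayed past the threshold.

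**Figure D3:**
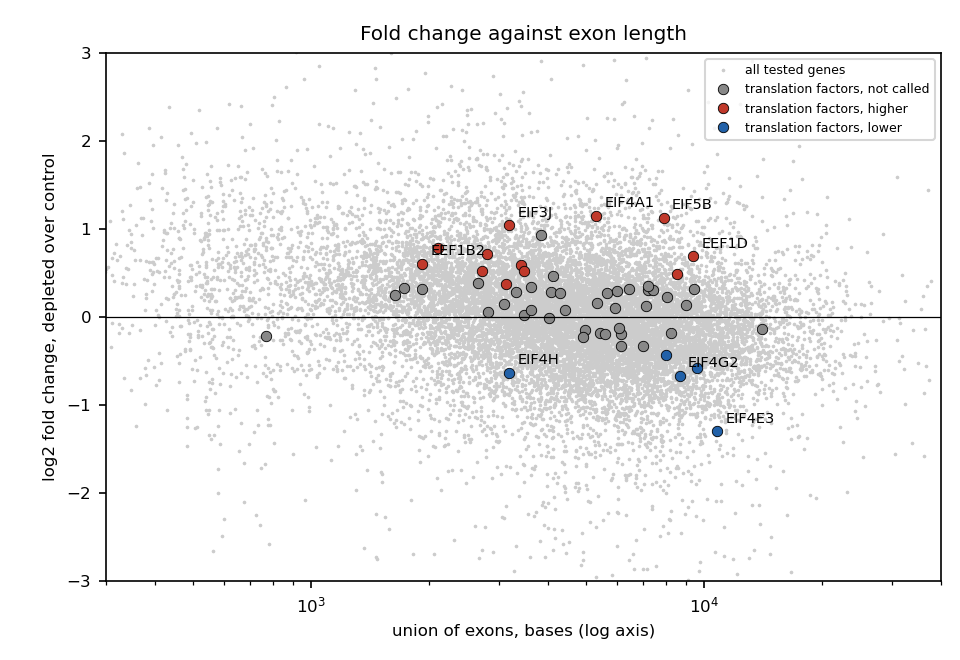
Log2 fold change of BCLAF1-depleted over control libraries (vertical axis, cut at -3 and 3) against the union of exons in bases (log axis). Small grey points are tested genes, large points the members coloured by call. The cloud slopes down to the right, and EIF4H, EIF5B and EEF1D lie on the other side of 0 from the cloud at their length.

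**Figure D4:**
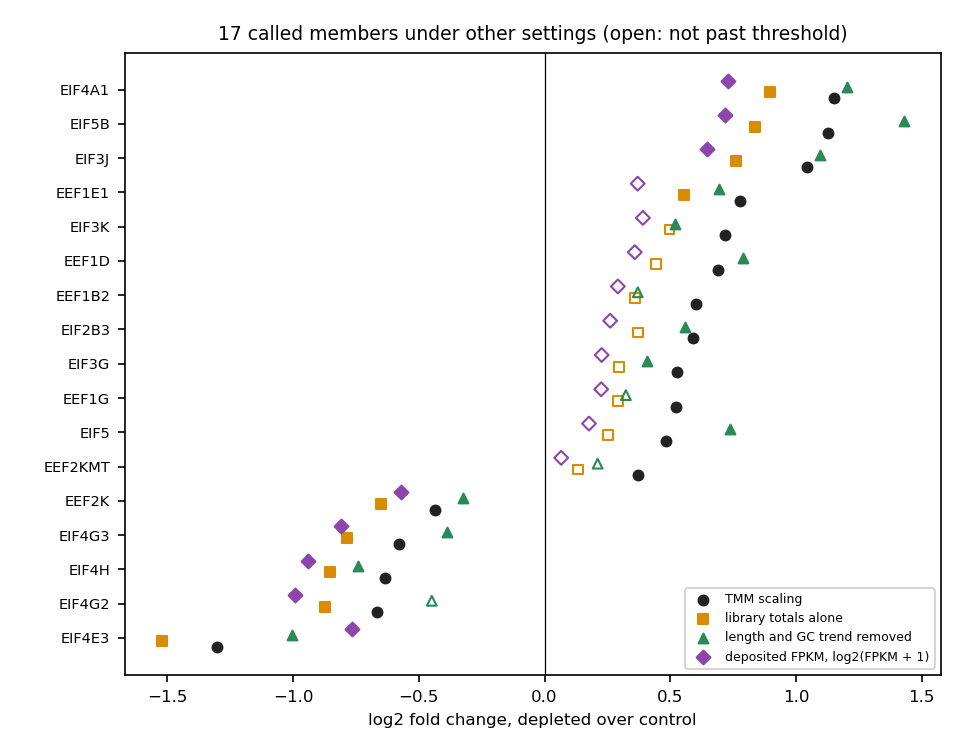
Log2 fold change of the 17 called members under TMM scaling, library totals alone, removal of the length and GC trend, and limma-trend on the deposited FPKM. Filled markers are past an adjusted p of 0.05 and open markers are not. Markers for library totals and FPKM sit left of TMM in every gene except EIF4E3, where the FPKM marker sits to the right, and no gene crosses 0.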

How the data were processed

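The authors deposited whole-number read counts per gene and library, not normalized, and FPKM values (fragments per kilobase of gene, scaled to depth) for 28878 genes. GRCh38, TopHat2, edgeR and bcl2fastq are named, per the submitters' processing notes. Their versions, the counting tool, the annotation and strand handling were not given in the sources used here. Per the labels' protocols, libraries were directional and made from oligo(dT)-selected RNA.

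Genes kept by filterByExpr (minimum count 10, minimum total 15) entered a quasi-likelihood test in edgeR 4.0.16 under R 4.3.3 (glmQLFit, glmQLFTest, TMM, group as the only term). The common biological coefficient of variation was 15.3%. SE is the fold change over the root of F. The alternatives used DESeq2 1.42.0, limma 3.58.1 and mgcv 1.9.3 (basis size 8, for the length and GC trend). Lengths and positions came from GENCODE 29, which matched 28362 genes of the table by identifier without its version (11767 with the same version). Start windows are RefSeq's. No column belonged to another series. The fit was tested on simulated data. SE and SD measure the spread between libraries. The floor of 3 counts covers counting error only. Pairs of replicates differed by more than sampling noise (chi-square per degree of freedom 3.63 to 183.3).

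The members and lists were chosen with earlier results of these data known. Named were BCLAF1, every called member, the member of highest FPKM in each role, the paralogue sets and up to 3 called genes per further list. Further members were named after their values were seen.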

Additional observations from a re-analysis of the deposited data

How the results depend on the processing

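Of 17 called members with given levels, EIF4E3 was called in every setting, and EIF4A1 in 19 but not with the SENP3-EIF4A1 reads added (0.04, adjusted p = 0.855). Of the 17, 9 were called with library totals alone, 13 with the length and GC trend removed, and 0 changed sign. Members higher and lower, 13 and 5 in the report, were 5 and 7 with library totals alone, 4 and 10 on log2(FPKM + 1) and on log2(FPKM + 0.1), and 2 and 2 on unfiltered log2(FPKM + 1), where 2630 genes were called. At an adjusted p under 0.01 they were 4 and 1 (2436 genes). Leaving out 1 library at a time gave 5 to 20 higher and 1 to 10 lower members, and 2938 to 7936 genes called. Adding the SENP3-EIF4A1 reads to EIF4A1, chosen after seeing the data, gave 12 and 5. The cause of these changes was not tested.

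A replicate block gave 14 higher and 5 lower members (6007 genes called), and with the length and GC trend removed as well 20 and 3. Libraries of the same replicate number correlated weakly across the groups (correlation of deviations 0.036, 0.047 and 0.119). Each library still correlated best with its own number, as unlike numbers gave -0.076 to 0.033. Whether the numbers pair the libraries cannot be told from 3 libraries a group.

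Among the named genes, signs turned only for members not called. EEF1A1 was at -0.10 with library totals alone, at -0.20 on each FPKM setting, and between -0.0027 and 0.19 with 1 library left out. With the length and GC trend removed it was at 0.27. EEF2 was at 0.028 under upper-quartile scaling, 0.015 with a filter of 5 CPM, and between -0.053 and 0.014 with 1 library left out. EIF2B4 was at -0.075 with library totals alone and at -0.13 on FPKM. EIF5A was at -0.18 with library totals alone, -0.23, -0.24 and -0.23 on FPKM, -0.14 with the length and GC trend removed, -0.13 with the block as well, and between -0.010 and 0.16 with 1 library left out. EIF1AD was at -0.0098, -0.012 and -0.0098 on FPKM. With the length and GC trend removed, and with the block as well, EIF4A2 was at 0.028 and 0.021, EIF4E at 0.16 and 0.16, and EIF5A2 at 0.035 and 0.019. With 3 libraries a group, a p over the threshold does not show that a member stayed level.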
